A study of Mus musculus with 4 samples.

Results

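Glycolysis and the oxygen-sensing pathway of the hypoxia-inducible factors (HIF) were followed through 37 genes of the 22911 that could be named on the arrays. The genes were listed by name for their role in either pathway, and their probes were found by matching each probe's RefSeq accession to the gene. The set held 21 glycolysis genes (2 transporters, 16 enzymes and 3 regulators of flux) and 16 HIF genes (7 regulators and 9 target genes). All 37 had a probe, 61 probes in all, and 16 genes had at least 2. The brightest probe of 36 genes was well above background on every array, and that of Zfp395 was so on 3 of 4.

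The cells were labelled as peritoneal macrophages, each sample from a mouse that was wild-type or LysM-St18flox, and as PEC in the sample titles. They were washed out of the peritoneum of mice given 4% thioglycollate, which recruits leukocytes there, for 3 days. Total RNA came from unstimulated cells (0 h) and from cells kept with lipopolysaccharide (LPS), the bacterial agonist of Toll-like receptor 4, for 3 h. Each of the 4 groups (wild-type 0 h, wild-type 3 h, LysM-St18flox 0 h and LysM-St18flox 3 h) was 1 array, so every difference is one between single arrays, with no test and no replicate error. LysM names the lysozyme promoter, which commonly drives recombination in macrophages and neutrophils. The sources used here do not give the dose of LPS or the age and strain of the mice.

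Values are levels unless called differences. A level is the log2 signal minus the array's 75th percentile, so that 0 is the brightness of that percentile. St18, the gene named in the genotype, had a level of -1.31 and -1.66 in wild-type cells at 0 h and 3 h by its brightest probe, which was not well above background in LysM-St18flox cells at either time. All 10 macrophage markers (such as Adgre1 and Csf1r) were well above background on all 4 arrays. Between 52.2% and 55.6% of spots were well above background and none was saturated. Probes printed 10 times had a median standard deviation (SD) of 0.03 to 0.04 between spots, which covers spot error and neither mice nor cultures. A wider measure is the gap between the differences that the 2 brightest probes of a gene gave. Its median was 0.41 for the LPS response of wild-type cells, 0.17 for that of LysM-St18flox cells, 0.35 for the genotype difference at 0 h and 0.15 for that at 3 h.

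Glycolysis splits glucose into pyruvate in the cytosol, and lactate dehydrogenase with a lactate exporter keeps it running when pyruvate does not enter mitochondria. HIF is a dimer of an alpha subunit (from Hif1a or Epas1) and Arnt. With oxygen present, the prolyl hydroxylases of the Egln genes mark the alpha subunit for the ubiquitin ligase that contains Vhl, and without oxygen the dimer switches on glycolytic and other genes that share a short core motif. Macrophages activated with LPS are known for high glycolytic flux and for HIF-1 alpha protein that builds up even in oxygen, and Egln3 is itself a classical HIF target.

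After 3 h of LPS the HIF genes split: the transcript of the factor was higher while that of a hydroxylase and of several target genes was lower, in both genotypes. Hif1a was 3.48-fold higher in wild-type and 2.82-fold higher in LysM-St18flox cells. Egln3 was 7.71-fold and 7.70-fold lower, and Ankrd37 was 20.0-fold and 22.9-fold lower. Of the 16 glycolytic enzymes, 1 was at least 2-fold apart in wild-type cells, beside 20.7% of all genes, and 2 in LysM-St18flox cells, beside 17.1%. The median size of their differences, 0.50 and 0.24, was near the 0.48 of all genes in wild-type cells and below their 0.38 in LysM-St18flox cells.

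**Figure D1:**
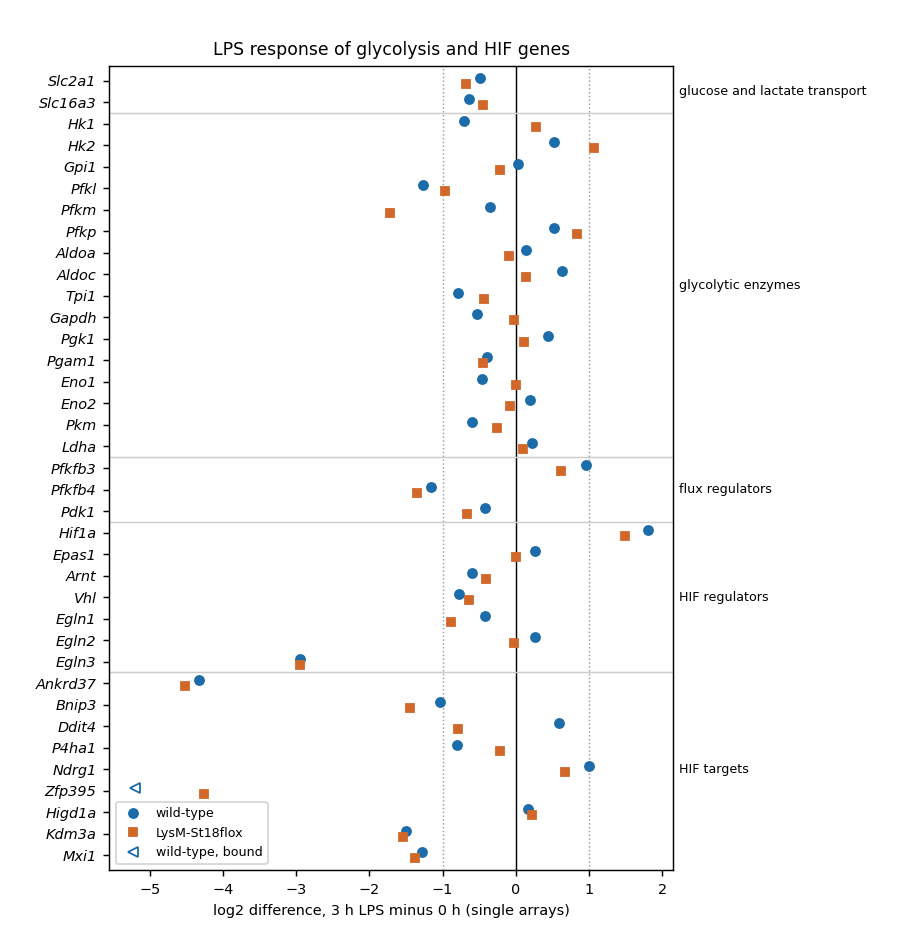
Log2 difference of each of the 37 genes between 3 h of LPS and 0 h (x axis) by its brightest probe, in wild-type (circles) and LysM-St18flox cells (squares), with 1 array per group. Dotted lines mark 2-fold, and the open triangle is a bound for Zfp395 in wild-type cells. Ankrd37, Zfp395 and Egln3 lie far to the left in both genotypes, and Hif1a lies farthest to the right.

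Hif1a, the oxygen-regulated subunit, had a level of 3.05 at 0 h and 4.85 at 3 h in wild-type cells, and of 3.09 and 4.58 in LysM-St18flox cells. Both stimulated arrays lay above both unstimulated ones. Epas1, which encodes another alpha subunit, had levels of 3.82 and 4.08 in wild-type and 4.31 and 4.31 in LysM-St18flox cells. Its LPS differences of 0.26 and 0.01 changed sign with the scaling. Arnt, the shared partner, differed by -0.60 in wild-type and -0.40 in LysM-St18flox cells, and its dimmer probe by -0.01 and -0.34.

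Vhl, the recognition subunit of the ubiquitin ligase, differed by -0.78 and -0.64 after LPS in the 2 genotypes. Egln1, the main prolyl hydroxylase of most cells, differed by -0.42 and -0.89, the second value passing 2-fold with quantile normalization and in the deposited table (-1.08 to -0.65 over 5 scalings). Egln2 differed by 0.26 and -0.03, and both signs changed with the scaling. Egln3 stood apart from its paralogs, with levels of 1.14 and 1.29 at 0 h in wild-type and LysM-St18flox cells against -1.81 and -1.65 at 3 h. The LPS difference was -2.95 in each genotype, and the arrays of the 2 times did not overlap.

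Of the 9 HIF target genes, 8 were measured on both wild-type arrays: 4 were at least 2-fold lower after LPS and 1 was higher. All 9 were measured in LysM-St18flox cells, where 5 were lower and none was higher. Among all measured genes, 11.6% were at least 2-fold lower and 9.04% higher in wild-type cells, and 8.97% lower and 8.12% higher in LysM-St18flox cells. The median LPS difference of the 16 HIF genes was -0.60 over the 15 measured in wild-type cells and -0.72 in LysM-St18flox cells, against -0.11 and -0.09 over all measured genes.

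Ankrd37, an ankyrin repeat gene known for its induction in low oxygen, had levels of 2.94 at 0 h and -1.38 at 3 h in wild-type cells, and of 3.05 and -1.47 in LysM-St18flox cells. Both stimulated arrays lay far below both unstimulated ones. Zfp395, a zinc finger gene, had levels of 0.80 and 0.00 at 0 h in wild-type and LysM-St18flox cells. At 3 h it was not well above background in wild-type cells (measured -4.50) and had -4.26 in LysM-St18flox cells. By the main processing it was therefore at least 36.8-fold lower in wild-type cells. This bound was set against the lowest level well above background on that array and was not recomputed with another background correction. Zfp395 was 19.2-fold lower in LysM-St18flox cells, where the difference of -4.26 was -2.94 with normexp background correction.

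Kdm3a, a histone H3 lysine demethylase gene, had levels of 2.66 and 2.69 at 0 h and 1.16 and 1.14 at 3 h in wild-type and LysM-St18flox cells. It was 2.82-fold and 2.92-fold lower after LPS. Mxi1, which encodes a partner of MAX that opposes MYC, was 2.43-fold and 2.61-fold lower. Bnip3, whose protein sits on mitochondria and takes part in their removal, was 2.05-fold and 2.73-fold lower, and the wild-type value missed 2-fold under some scalings (-1.20 to -0.92).

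Ndrg1, a stress-responsive gene of the N-myc downstream-regulated family, went the other way. Its levels were 3.23 and 3.48 at 0 h and 4.24 and 4.14 at 3 h, so that it was just 2-fold higher in wild-type cells (0.75 to 1.08 over 5 scalings, on either side of that line) and 1.59-fold higher in LysM-St18flox cells. Higd1a, a gene of a small mitochondrial membrane protein, differed by 0.17 and 0.23, with signs that changed with the scaling. P4ha1, the catalytic subunit of collagen prolyl hydroxylase, differed by -0.81 and -0.21, and its dimmer probe by 0.13 and -0.17.

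Ddit4, whose protein restrains the growth kinase mTOR, was the HIF target with opposite LPS differences in the 2 genotypes. Its levels were 1.55 at 0 h and 2.14 at 3 h in wild-type cells, and LysM-St18flox cells had 2.02 and 1.22. The LPS difference was 0.59 in wild-type and -0.80 in LysM-St18flox cells, on 1 probe.

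Across the 15 HIF genes measured in both genotypes, 5 were at least 2-fold lower in both (Ankrd37, Egln3, Kdm3a, Mxi1 and Bnip3) and 1 was higher in both (Hif1a). Over all 12344 genes measured on 4 arrays, 6.26% were lower and 6.19% higher in both. The LPS differences of the HIF genes correlated between genotypes at Pearson's r = 0.96 (n = 15 genes), those of the 21 glycolysis genes at 0.70 and those of all genes at 0.86. Such an r depends on spread, and wild-type values ran from -4.32 to 1.80 for HIF and from -1.26 to 0.96 for glycolysis genes. The median size of the difference between the 2 responses was 0.25 for HIF, 0.32 for glycolysis and 0.26 for all genes. The comparisons share no array, but all 4 arrays share a slide, and genes are not independent replicates.

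The HIF core motif was common before the start sites of the 37 genes. It was searched as ACGTG and GCGTG on both strands, in the 250 bases before each RefSeq start (build GRCm38.p6). A palindromic CACGTG counts once per strand and is also the E-box of other factors. At least 1 match stood in 40 of 52 windows of the 34 genes with an entry (76.9%), against 38.6% of all 32851 windows. Windows with ACGTG made up 44.2%, against 16.6%. For the 6 members at least 2-fold lower in both genotypes, 7 of 10 windows had a match (70.0%). Windows of glycolysis genes had a match in 76.5% and those of HIF genes in 77.8%, so the share did not separate the 2 classes. The genes were picked by name for these pathways, with HIF targets among them, so a high share is no independent result. Base composition was not compared, and a match is no evidence of binding.

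These sequences show the motif in capitals, 5′ to 3′ along the gene, to let a reader see it beside genes of opposite response. Egln3, the hydroxylase gene, and Bnip3, a target gene with several matches, are shown whole, and 3 further genes as 30 bases around the match farthest from the start. Egln3 (chr12:54203875-54204124, minus strand) and Bnip3 (chr7:138909507-138909756, minus strand) are the 250 bases before the start. The others are Ankrd37 (chr8:46000071-46000100, minus strand), Kdm3a (chr6:71632927-71632956, minus strand) and Hif1a (chr12:73907720-73907749, plus strand).
Egln3: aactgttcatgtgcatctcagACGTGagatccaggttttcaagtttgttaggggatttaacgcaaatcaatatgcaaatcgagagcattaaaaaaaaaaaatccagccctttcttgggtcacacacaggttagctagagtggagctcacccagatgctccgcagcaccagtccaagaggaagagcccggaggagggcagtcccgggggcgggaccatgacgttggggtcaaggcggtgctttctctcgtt
Bnip3: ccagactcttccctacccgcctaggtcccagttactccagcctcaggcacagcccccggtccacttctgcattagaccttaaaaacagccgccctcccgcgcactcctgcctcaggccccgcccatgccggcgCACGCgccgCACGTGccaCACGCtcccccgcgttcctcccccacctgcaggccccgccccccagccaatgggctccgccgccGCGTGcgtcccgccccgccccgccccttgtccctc
Ankrd37: cccagcagtACGTGcctagctcggctcgca
Kdm3a: ccgggaggctgtGCGTGtcttgtgagagag
Hif1a: cacacagacaagCACGTGagcggggcagct
Egln3 had 1 match, 229 bases before its start, and Bnip3 had 5, between 117 and 35 bases before it. Ankrd37 had 4 matches in its window, Kdm3a 1 (in 1 of its 3 windows) and Hif1a 3. The motif thus stood before Hif1a, which was higher after LPS, and before the 4 others, which were lower.

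The glucose and lactate transporters were lower, by less than 2-fold, where Hif1a was higher. Slc2a1, the glucose importer GLUT1, had levels of 4.07 at 0 h and 3.58 at 3 h in wild-type cells, and of 4.47 and 3.78 in LysM-St18flox cells. Both stimulated arrays were below both unstimulated ones, and the LPS differences were -0.49 and -0.68. Slc16a3, the lactate exporter MCT4, differed by -0.65 and -0.45, with levels of 5.32 and 4.67 in wild-type and 4.54 and 4.09 in LysM-St18flox cells that overlapped between the times.

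At the entry step of glycolysis, a higher and a lower hexokinase stood side by side in wild-type cells, but not clearly in LysM-St18flox cells. Hk2, an inducible hexokinase, had levels of 3.38 and 3.22 at 0 h in wild-type and LysM-St18flox cells and of 3.90 and 4.29 at 3 h, above both. It was 1.44-fold and 2.09-fold higher, and the second value fell below 2-fold under some scalings (0.80 to 1.30). Hk1, the constitutive hexokinase, differed by -0.71 in wild-type and 0.28 in LysM-St18flox cells, the latter with a sign that changed with the scaling.

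The phosphofructokinase subunits, which form the committed step, split in both genotypes. Pfkp, the platelet-type subunit, differed by 0.52 and 0.84, with its dimmer probe at 0.61 and 0.81, so that both probes put it higher on both stimulated arrays. Pfkl, the liver-type subunit, had levels of 2.48 at 0 h and 1.22 at 3 h in wild-type cells, and of 1.28 and 0.31 in LysM-St18flox cells. It was 2.40-fold and 1.95-fold lower after LPS, on 1 probe. Pfkm, the muscle-type subunit, differed by -0.36 and -1.72, and its level at LysM-St18flox 0 h (0.66) stood above the other 3 (-0.40, -0.76 and -1.07).

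Enzymes that set the level of fructose 2,6-bisphosphate, the activator of phosphofructokinase, also went opposite ways. Pfkfb3, the isoform known for inflammatory induction, had levels of 4.15 and 3.95 at 0 h and 5.11 and 4.56 at 3 h in wild-type and LysM-St18flox cells. Its differences were 0.96 and 0.62, and 1.67 and 0.67 by the dimmer probe. Pfkfb4 had levels of 2.54 and 2.87 at 0 h and 1.38 and 1.52 at 3 h, and was 2.23-fold and 2.55-fold lower. Pdk1, the kinase that shuts pyruvate out of mitochondria and a classical HIF target, differed by -0.42 and -0.67, with its next probe at -0.59 and -0.89.

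The other enzymes of the chain, Gpi1 and those from Aldoa to Ldha, were all within 2-fold after LPS by their brightest probes. In LysM-St18flox cells Gapdh differed by -0.03, Eno1 by 0.01, Ldha by 0.10, Pgk1 by 0.12, Aldoa by -0.10 and Gpi1 by -0.22, and the sign of each changed with the scaling. Pgam1, whose brightest probe was printed 10 times, differed by -0.40 in wild-type and -0.45 in LysM-St18flox cells, with spot SDs of 0.01 to 0.03. The neuronal isoforms Aldoc (0.63 and 0.14) and Eno2 (0.19 and -0.08) were also within 2-fold.

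In all, 2 of 21 glycolysis genes were at least 2-fold lower in wild-type cells (Pfkl and Pfkfb4) and none was higher. In LysM-St18flox cells 2 were lower (Pfkm and Pfkfb4) and 1 higher (Hk2). That made 2 and 3 of 21 in either direction, where 20.7% and 17.1% of all measured genes were at least 2-fold apart. The glycolysis median was -0.40 in wild-type and -0.10 in LysM-St18flox cells. Against them, 7 of 15 HIF genes were at least 2-fold apart in wild-type and 7 of 16 in LysM-St18flox cells.

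Both stimulated arrays lay below both unstimulated ones for 7 of 21 glycolysis and 8 of 15 HIF genes, and above them for 6 and 3. Over all genes the shares were 37.9% and 27.0%. The glycolysis counts are near those shares. The summed level of neutrophil markers was 161 and 248 in wild-type cells (0 h, then 3 h) and 163 and 173 in LysM-St18flox cells, and its part in these differences was not tested.

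**Figure D2:**
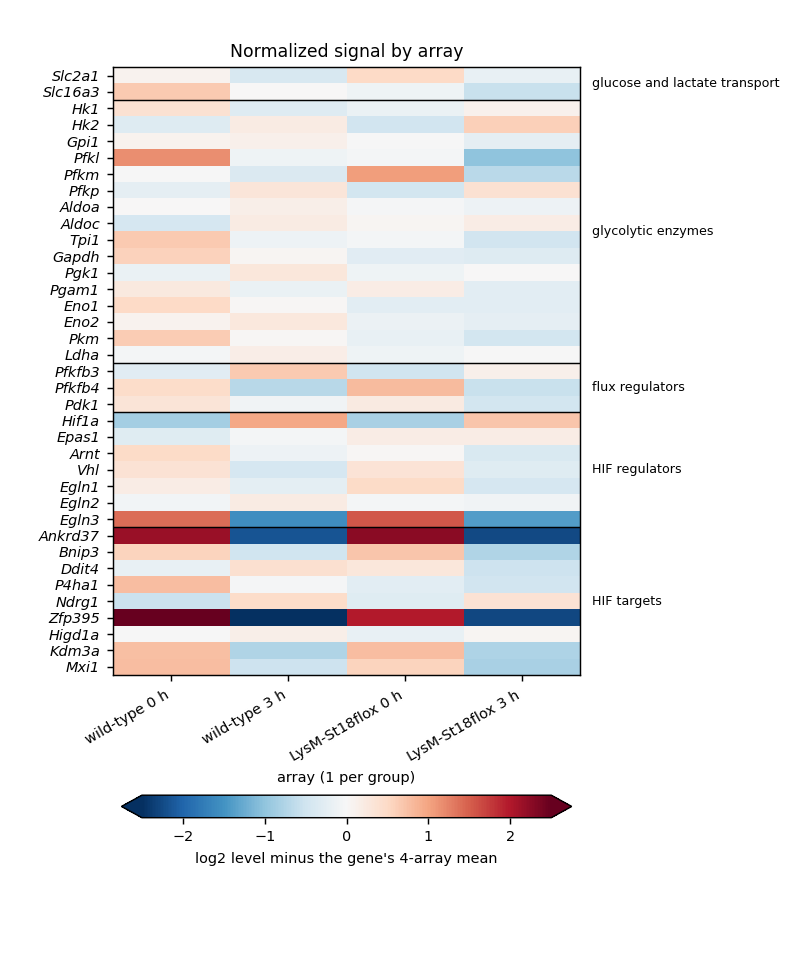
Level of each gene on each of the 4 arrays (columns) minus its mean over them, on a log2 scale, by the brightest probe. Blue and red columns alternate between 0 h and 3 h for Egln3, Ankrd37, Zfp395, Kdm3a and Mxi1, while most glycolytic enzymes stay pale. The scale ends at 2.5 in either direction.

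Further genes of both pathways were read from lists. Of 31 other glycolysis and pyruvate genes, 24 were measured in wild-type cells, with 2 at least 2-fold higher and 4 lower, and 25 in LysM-St18flox cells, with 1 higher and 3 lower. Their medians were -0.32 and -0.15. The shares past 2-fold, 25% and 16%, were near the 20.7% and 17.1% of all genes. Slc2a6, a hexose transporter gene, was 5.56-fold and 6.69-fold higher, with its dimmer probe at 3.42 and 2.86 on the log2 scale. Gys1, the glycogen synthase of most tissues, was 3.48-fold and 2.76-fold lower. Pdk2, a kinase of pyruvate dehydrogenase, was 2.67-fold and 2.07-fold lower, and Pfkfb2, another maker of fructose 2,6-bisphosphate, was lower by -1.07 and -1.63. Past 2-fold in wild-type cells only were Slc16a1, a monocarboxylate transporter gene (1.55 against 0.34 in LysM-St18flox cells), and Slc2a3, the glucose transporter GLUT3 (-1.26 against -0.66). Neither difference between the genotypes was tested.

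None of 7 pentose phosphate genes was at least 2-fold apart in either genotype. Of 10 other HIF regulators 8 were measured, and Cited2, which competes with HIF for its coactivators, was the only one past 2-fold (1.53 in LysM-St18flox and 0.71 in wild-type cells). Of 28 other HIF target genes 21 were measured in each genotype. In wild-type cells 2 were higher and 4 lower (median -0.38), and in LysM-St18flox cells 3 were higher and 5 lower (median -0.42). Vegfa, the growth factor gene of blood vessels and a textbook HIF target, had levels of 3.02 and 3.31 at 0 h and -0.23 and -0.24 at 3 h in wild-type and LysM-St18flox cells. It was 9.49-fold and 11.7-fold lower, with its dimmer probe at -1.13 and -1.59 on the log2 scale. Cxcr4, a chemokine receptor gene, was 10.2-fold and 8.77-fold lower, and Bhlhe40, a transcriptional repressor gene, 4.23-fold and 3.26-fold lower. Kdm4b, a histone demethylase gene, differed by -1.42 and -0.85, and Narf, measured in LysM-St18flox cells, by -3.50. In wild-type cells Narf had a level of -1.09 at 0 h and was not well above background at 3 h. Adm, which encodes the peptide adrenomedullin, was 5.35-fold and 2.51-fold higher, from levels of -3.42 and -2.10 at 0 h. The wild-type one was near the lowest level well above background on its array (-4.14). Ak4, an adenylate kinase of mitochondria, was 2.02-fold and 2.05-fold higher, and Ccng2, a cyclin gene, differed by 0.52 and 1.06. Lox and Pgf were well above background at 3 h but not at 0 h in both genotypes, as was Plod2 in LysM-St18flox cells. In wild-type cells at 3 h, Lox had a level of -2.03. Pgf had -4.04 there, near the lowest level well above background on that array (-4.41). Like Narf in wild-type cells, these genes had no counted difference where 1 time was at background. The other HIF targets went both ways, and those at background at 1 time did too. In wild-type cells 6 of 21 passed 2-fold (28.6%), beside 20.7% of all genes, and in LysM-St18flox cells 8 of 21 did (38.1%), beside 17.1%.

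Between genotypes most of the 21 glycolysis genes had lower levels in LysM-St18flox cells, by small amounts, but the other genes of the pathway were evenly split at 3 h. At 3 h, 16 of 21 glycolysis genes were below 0 (median -0.29), and so were 12 of 15 HIF genes (median -0.18), against a median of -0.01 and 52.5% below 0 over all genes. Of the 24 other glycolysis and pyruvate genes measured at 3 h, 12 were below 0 and 12 above (median -0.0048). Of the 7 pentose phosphate genes 5 were below 0 (median -0.14). None of the 36 measured members was at least 2-fold apart at 3 h, where 3.22% of all genes were (1.82% higher and 1.4% lower in LysM-St18flox cells). At 0 h, 16 of 21 glycolysis genes (median -0.16) and 6 of 16 HIF genes (median 0.03) were below 0, against -0.03 and 53.1% below 0 over all genes. The 0 h count includes Gapdh, Pkm, Eno1, Tpi1, Ldha and Pdk1, whose probes differed in sign. The 2 brightest probes had the same sign at 0 h for 7 of 14 members. There 3 of 37 were at least 2-fold apart, beside 6.07% of all genes. Pfkm was 2.08-fold higher (0.81 to 1.09 on the log2 scale over 5 scalings), where 3.04% of all genes were higher, and Pfkl and P4ha1 were lower, where 3.03% were.

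The 3 h difference was seen with other probes of the same genes. All 11 second-brightest probes of glycolysis genes were below 0 (median -0.40), as were 33 of all 39 glycolysis probes. Over all genes the median by the second-brightest probe was -0.06. Probes of a gene were read from the same arrays and are not independent. All 6 Gapdh probes were lower in LysM-St18flox cells, by -0.36 to -0.59. The 3 Tpi1 probes gave -0.35, -0.42 and -0.48, those of Eno1 -0.29 and -0.53, and those of Pkm -0.48 and -0.40. These genes encode the glyceraldehyde phosphate dehydrogenase, triose phosphate isomerase, enolase and pyruvate kinase of the chain, and each probe put the LysM-St18flox array below the wild-type one.

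Pfkl had the widest genotype difference of the glycolysis genes at 3 h by the brightest probe, at -0.90, and at 0 h it was 2.30-fold lower in LysM-St18flox cells. It had 1 probe, so the 0 h value could not be compared with another probe. Slc16a3 differed by -0.77 at 0 h and -0.57 at 3 h. Pfkfb3 differed by -0.20 and -0.54, and by -0.01 and -1.01 by its dimmer probe. Higher at 3 h were Hk1 (0.45), Hk2 (0.39), Slc2a1 (0.20), Pfkfb4 (0.14) and Pfkp (0.08), of which Pfkp had its dimmer probe at -0.14.

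Among the 9 bright glycolysis genes, with a mean level of 5 or more, the 3 h median was -0.29. Over all 774 genes that bright it was -0.06, with the middle of the values between -0.20 and 0.04 (lower and upper quartile). The 8 glycolysis genes with a mean level of 2 to 5 had a 3 h median of 0.11, against -0.03 over all genes at that level. At 0 h the bright glycolysis genes had a median of -0.10, and all equally bright genes one of -0.12. Both LysM-St18flox arrays lay below both wild-type arrays for 7 of 21 glycolysis genes by the brightest probe and above them for none, where 13.3% of all genes lay below and 10.9% above. Of the 7, Gapdh, Eno1 and Pkm had other probes that did not separate the genotypes. Slc16a3, Aldoa and Eno2 had a single probe, so other probes could not be compared for them. Gpi1 and Aldoa differed at 0 h by only -0.10 and -0.03, with signs that changed with the scaling. The 2 wild-type arrays and the 2 LysM-St18flox arrays differ in LPS and are not replicates.

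**Figure D3:**
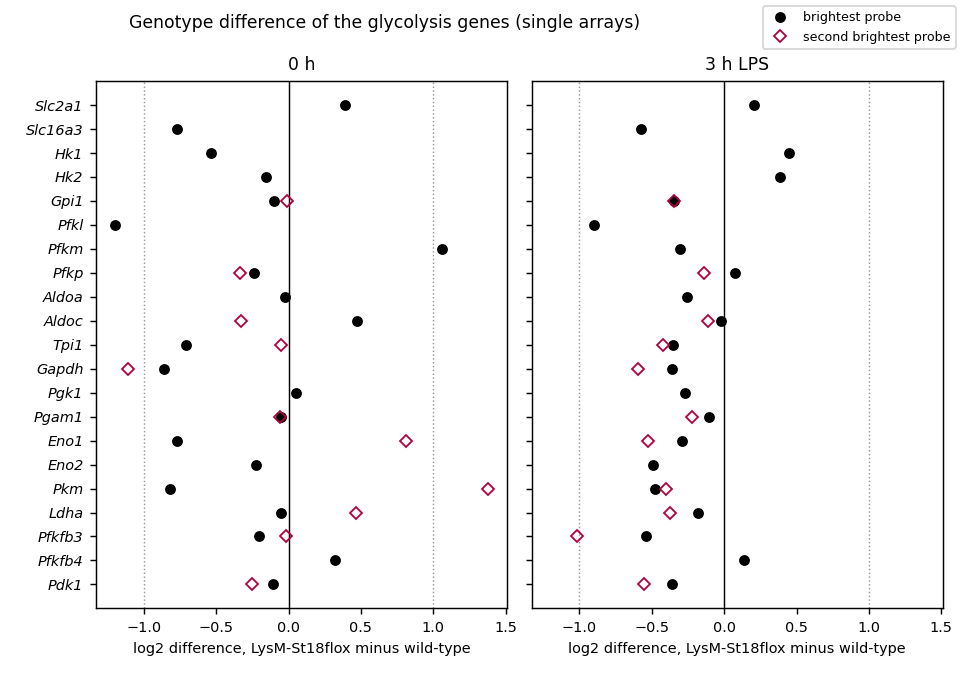
Log2 difference between LysM-St18flox and wild-type arrays (x axis) for the 21 glycolysis genes at 0 h (left) and after 3 h of LPS (right), by the brightest probe (filled circles) and the second brightest (open diamonds). Dotted lines mark 2-fold. At 3 h the 11 diamonds all lie left of 0, while at 0 h those of Pkm (1.38), Eno1 (0.81) and Ldha (0.47) lie on the right.

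At 0 h the probes of the same genes disagreed. Gapdh gave -0.86, -1.11, -1.14 and -0.79 by its 4 brightest probes and 0.02 and 0.23 by the 2 dimmest. Pkm gave -0.82 and 1.38, Eno1 -0.77 and 0.81, and Tpi1 -0.71, -0.06 and 0.46. P4ha1 was 2.07-fold lower by its brightest probe and 0.14 higher on the log2 scale by the other. Signs also differed between the probes of Ldha (-0.05 and 0.47), Aldoc (0.47 and -0.33), Arnt (-0.46 and 0.24) and Egln2 (0.01 and -0.44). Pdk1 gave 0.43 by its dimmest probe and values below 0 by the others. No direction can be given at 0 h for any of these genes. Genes with 1 probe, among them Pfkl, Pfkm and Slc16a3, could not be checked in this way.

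For Pkm, Eno1, Tpi1 and P4ha1 the disagreement lay in the wild-type 0 h array. The gap between the levels of the 2 brightest Pkm probes was 4.75 there and 2.54 to 2.61 on the other 3 arrays. For Eno1 it was 5.38 against 3.78 to 4.01, for Tpi1 2.77 against 2.02 to 2.12, and for P4ha1 3.77 against 2.55 to 2.84. Of the 14 members with 2 probes above background throughout, 8 had their widest gap on that array. Over all 4217 such genes the share was 43.4%, and the median departure of the gap from its middle value was 0.31 on that array and 0.08 to 0.10 on the others. The position of the probes along their transcripts was not used here, and the cause was not tested.

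**Figure D4:**
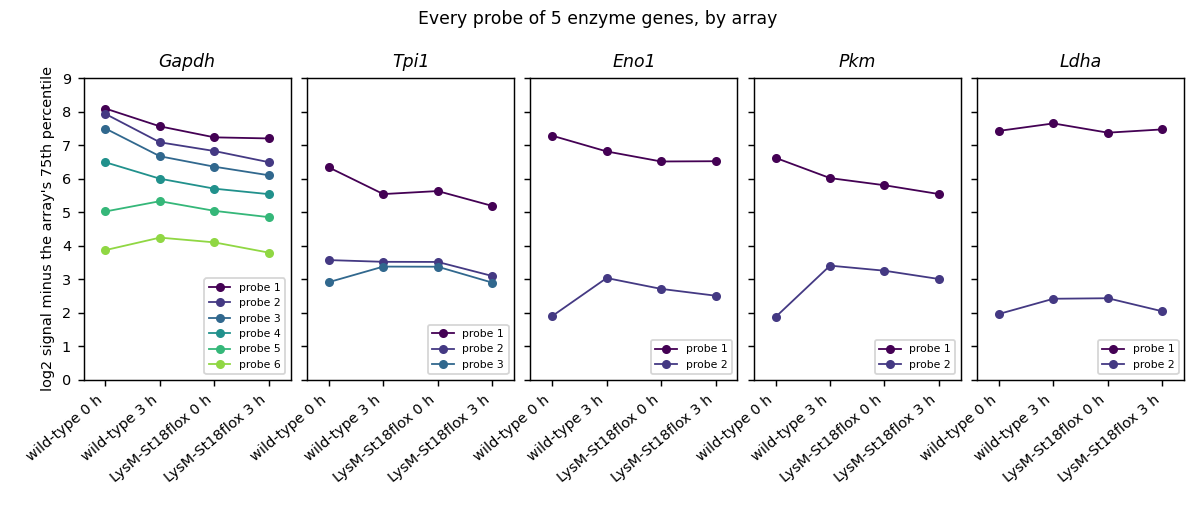
Level of every probe (one line each) of Gapdh, Tpi1, Eno1, Pkm and Ldha on the 4 arrays, as log2 signal minus the array's 75th percentile (y axis). For Tpi1, Eno1 and Pkm the 2 brightest probes lie farthest apart at wild-type 0 h, where the Pkm probes are at 6.62 and 1.87, while the Ldha probes keep a similar distance there and at LysM-St18flox 3 h. Lines join arrays to guide the eye.

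The same array entered the wild-type LPS response, where probes of some genes differed in sign. Gapdh differed by -0.53 by its brightest probe and 0.37 by its dimmest, Pkm by -0.60 and 1.53, and Eno1 by -0.47 and 1.13, while both Ldha probes were above 0 (0.22 and 0.45). The glycolysis median of -0.40 by the brightest probe was 0.08 over the 11 second-brightest probes and -0.07 with all probes of a gene averaged. In LysM-St18flox cells the 2 Pkm probes gave -0.26 and -0.25 and the 6 Gapdh probes -0.33 to -0.03, but Ldha gave 0.10 and -0.39, Aldoc 0.14 and -0.19, and Eno1 0.01 and -0.20. The 2 brightest probes had the same sign for 10 of 14 members in LysM-St18flox and 9 of 14 in wild-type cells, and the median gap between their differences was 0.06 and 0.48. Most HIF genes that were 2-fold lower had 1 probe on the array, so this comparison was not available for Egln3, Ankrd37, Zfp395, Kdm3a, Mxi1 or Bnip3. In LysM-St18flox cells, where the wild-type 0 h array has no part, the differences were -2.95, -4.52, -4.26, -1.55, -1.38 and -1.45 for these genes in turn.

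Between genotypes some of the HIF genes with the widest LPS responses had similar levels, but Zfp395 differed by -0.80 at 0 h. Egln3 differed by 0.16 at both times, Kdm3a by 0.03 and -0.02, Ankrd37 by 0.11 and -0.09, and Hif1a by 0.03 and -0.27. Epas1 was higher in LysM-St18flox cells at both times, by 0.49 and 0.24, with both LysM-St18flox arrays above both wild-type ones. Ddit4 was higher by 0.46 at 0 h and lower by -0.92 at 3 h, the widest value of the 36 measured genes at 3 h by the brightest probe.

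Markers of other cell types moved with the genotype beside these differences, and their part in them was not tested. The summed level of 9 B cell markers was 4.02 and 3.14 on the wild-type arrays (7 of 9 above background) and 22.8 and 18.1 on the LysM-St18flox arrays (9 of 9). That of 6 erythroid markers was 11 and 9.47 against 79.9 and 93.7, with 3 of 6 above background on each wild-type and 4 of 6 on each LysM-St18flox array, and Slc4a1 among those that were not on any array. That of 10 mesothelial and fibroblast markers was 11.7 and 12.3 against 5.36 and 4.27. The neutrophil markers were split. At 0 h LysM-St18flox cells had 5 of 10 past 2-fold on the lower side and the other 5 above 0 (median -0.86). Their summed level at 0 h was 161 in wild-type and 163 in LysM-St18flox cells. At 3 h 4 of 9 were lower and 1 higher (median -0.43). S100a9 differed by -2.25 and -2.74 and S100a8 by -1.73 and -1.84, while Retnlg differed by 0.81 and 1.11. Macrophage markers summed to 718 and 814 against 632 and 755. In RNA from a cell mixture, fewer cells of a type and less RNA per cell cannot be told apart.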

How the data were processed

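RNA of 4 cell samples was hybridised to 1-colour Agilent arrays (Cy3). The deposited intensity of a spot comes from the authors' scans and is, per the file headers, background-subtracted and not normalized between arrays. Agilent Feature Extraction had version 11.0.1.1, per the submitters' processing notes. The deposited value table holds log2 values. Its 4 columns share 1 set of quantiles (median 9.58), the sources used here do not say how it was made, and its centring is unknown, and each column correlated with its own array at 0.9999 or more.

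Unflagged spots of a probe were averaged as log2 intensity and each array's 75th percentile over non-control spots was subtracted. Of 35886 probes with a RefSeq accession, 32994 matched 1 symbol of the GRCm38.p6 gene table, and the sequences are from RefSeq. A gene was read by its brightest probe, with the second brightest as a check. It was measured in a comparison when well above background on both arrays. A gene was counted as higher or lower from a 2-fold difference on. Groups of single arrays allow no p-value. The functions were tested on simulated data.

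The members, lists and alternatives were chosen with earlier results of these data known. All members are named. Of each other pathway list, up to 4 of the largest differences past 2-fold per direction in each LPS response are named, where the second probe, if measured, had the same sign. HIF target genes well above background at a single time are named too. Marker lists are given by sums. Tools were Python 3.11.15, numpy 2.4.6, pandas 2.3.3, R 4.3.3 and limma 3.58.1. Alternatives were normexp correction, 4 other scalings or tables, 2 filters on dim probes and 2 choices of probe.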

Additional observations from a re-analysis of the deposited data

Results flagged for a closer look

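The LPS difference had opposite signs in the 2 genotypes, by at least 0.25 on either side, for Ddit4 and Hk1. For Ddit4 it was 0.59 in wild-type and -0.80 in LysM-St18flox cells, so that the responses differed by -1.38. For Hk1 it was -0.71 and 0.28, the latter between -0.01 and 0.51 over 5 scalings, and the responses differed by 0.98. Each rests on 1 probe and on 4 single arrays, one of them the wild-type 0 h array, and the difference was not tested.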

How the results depend on the processing

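Of 72 medians and 72 counts recomputed under 9 alternatives, 65 of each stayed within the limit set for them (for a median, the middle disagreement between 2 probes of a gene, and for a count, 1.5 times). That limit was wider than some medians, so staying within it does not show that a median kept its size. In the wild-type LPS response it was 0.41, where the glycolysis median was -0.40 and became -0.07 with all probes averaged. At 0 h it was 0.35, where that median was -0.16. Read by the second brightest probe, the LPS medians were 0.077 (glycolysis) and -0.0088 (HIF, 3 genes) in wild-type and -0.17 (HIF) in LysM-St18flox cells. Counts by that probe were 0 for the HIF genes in both LPS responses and at 0 h, 0 for glycolysis in the LysM-St18flox response, and 1 for glycolysis at 3 h. With centring on the median probe, the LysM-St18flox LPS medians were 0.14 (glycolysis) and -0.48 (HIF). The glycolysis value was -0.40 with quantile normalization and -0.40 in the deposited table. At 0 h, normexp left 1 glycolysis gene 2-fold apart, and the mean of all probes left 0 HIF genes. P4ha1 at 0 h turned to 0.14 by its second probe. Fewer genes had a second probe, and other causes were not tested. Centring on the median probe moved the median of all genes by 0.24 in the LysM-St18flox response and by -0.14 at 0 h, and there 1379 genes were higher and 730 lower after LPS in LysM-St18flox cells (otherwise 1054 and 1164). At 0 h it gave 289 higher and 678 lower (385 and 384). Normexp left 757 genes lower in the LysM-St18flox response, 229 higher and 251 lower at 0 h, and 137 higher and 96 lower at 3 h (otherwise 237 and 183). At 3 h the glycolysis median stayed between -0.40 and -0.25. No paired analysis was possible because each group is 1 array and the labels carry no replicate numbers, and no array could be left out for the same reason. The dimmest signals limit Zfp395 to a bound.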
